A study of Rattus norvegicus with 6 samples.

Results

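Chromatin accessibility in Med14 S983A INS-1 cells was compared with that in WT INS-1 cells after 1 h with forskolin (FSK). The comparison uses 2 of the 6 libraries of the series, 1 per genotype, and the peaks outside the mitochondrial chromosome. Of 220487 such merged peaks, 191619 were called in at least 1 of the FSK libraries. A peak entered the comparison when its mean over the 6 libraries was at least 1 FPKM, which 146906 peaks met.

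Both cell populations derive from INS-1, an insulinoma line of the rat that serves as a model of the beta cell. The WT group was INS-1 without the substitution, and the Med14 S983A group carried a CRISPR-Cas9 knock-in of alanine for serine at the S983 site of Med14, grown from sorted single cells. Each line of this kind is therefore 1 clone, and which of the mutant lines gave these libraries, or whether cultures were pooled, is not stated. The substitution and other differences between the lines cannot be told apart here, and a genotype difference below means a difference between these groups. Cells of all groups were moved to serum-free medium. They then received no stimulus (CON), 10 nM exendin-4 (Ex-4) or 10 µM FSK for 1 h.

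ATAC-seq uses the Tn5 transposase to cut and tag DNA that is not shielded by nucleosomes, so read density over a region reports how accessible it is. FSK activates adenylate cyclase and raises cAMP, which activates protein kinase A (PKA), and the GLP-1 receptor agonist Ex-4 reaches the same kinase through its receptor. PKA phosphorylates transcription factors such as CREB, which bind enhancers and promoters and call on coactivators. Mediator is the multi-subunit complex that links such factors to RNA polymerase II, and Med14 is the subunit that forms its backbone. Alanine at the site takes away the hydroxyl group that a kinase would modify. The question addressed here is how far the accessible regions of the mutant cells differ from those of WT cells once the cAMP pathway is on, and how much of that difference is already there without it.

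Each condition had 1 library, so no replicate error exists, no p-value is given and every statement covers these libraries only. The FSK libraries differed in depth. Reads in peaks, recovered from the steps between the lowest values, came to 251200000 in WT FSK and 163000000 in Med14 S983A FSK, and the other 4 libraries held 134300000 to 158800000. WT FSK had 169448 called peaks and Med14 S983A FSK 144166. A library lists a peak at 0 where its own peak list lacks it, apart from 141 peaks in WT FSK and 126 in Med14 S983A FSK that have a value without a call. A value of 0 thus says that no peak was called and gives no fold. Whether a peak missing from the shallower library reflects chromatin or depth cannot be told apart here. FPKM counts reads per kilobase of merged peak and is scaled to the reads inside the library's own peaks. Where a library's own peak covers only a stretch of a merged peak, its value can be lower for that reason, and the widths of the separate peaks were not used here. Differences are Med14 S983A minus WT on the log2(FPKM + 0.5) scale, which understates the change of weak peaks. A peak counts as higher or lower in the mutant when the difference is at least 2-fold on that scale.

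Among the 146906 peaks compared, 13130 (8.94%) were higher and 35235 (24%) were lower in Med14 S983A FSK. Most of these came from peaks that only 1 of the FSK libraries called. The 21651 compared peaks called in WT FSK and not in Med14 S983A FSK gave 21623 of the lower peaks, and the 7863 called in Med14 S983A FSK and not in WT FSK gave 7858 of the higher peaks. On the other side these peaks are listed at 0 or stand at no more than 0.512 FPKM, and they are described apart from the rest.

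Peaks called in both FSK libraries numbered 121995, of which 112608 passed the filter. Of these, 5271 (4.68%) were higher and 13610 (12.1%) were lower in the mutant, which makes 27.9% of the 2-fold differences higher. This split depended on how the libraries were scaled. Centring each library on its median over the peaks called in all 6 libraries moved each difference up by 0.17 on the log2 scale and gave 7739 higher and 10613 lower peaks (42.2% higher). Quantile normalization put the median difference at 0.182 and turned the split round, with 16268 higher and 11927 lower peaks (57.7% higher). That alternative ranks all peaks off the mitochondrial chromosome, those listed at 0 included. The share listed at 0 was 23.1% in WT FSK and 34.6% in Med14 S983A FSK, so missing calls enter the ranks. The part of these listings in the turn was not tested. The size of the excess of lower peaks thus depends on the scaling, while its direction turned under quantile normalization and not under centring. The differences below are given on the scaling of the authors.

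Most peaks called in both FSK libraries read about alike in both genotypes, a class that leaves out the peaks called in 1 FSK library only. The median difference over the peaks called in both libraries was 0.0093. In 74498 of them (66.2%) the values lay within 1.5-fold. The middle of the distribution, from the 25th to the 75th percentile, ran from -0.49 to 0.31, and the 5th and 95th percentiles were -1.60 and 0.97. The tail of lower peaks was the longer one, as 3127 peaks were at least 4-fold lower and 831 at least 4-fold higher. Counting error was small against this range, with a median standard error of 0.092 on the log2 scale and a 95th percentile of 0.21. Across these peaks the levels of the genotypes had a Pearson correlation of 0.81, a description over peaks that share the same pair of libraries. Peaks that were strong in one genotype and nearly closed in the other existed on both sides. In 233 peaks WT FSK had at least 20 FPKM and Med14 S983A FSK less than 2 FPKM, and in 49 peaks the reverse was found.

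**Figure D1:**
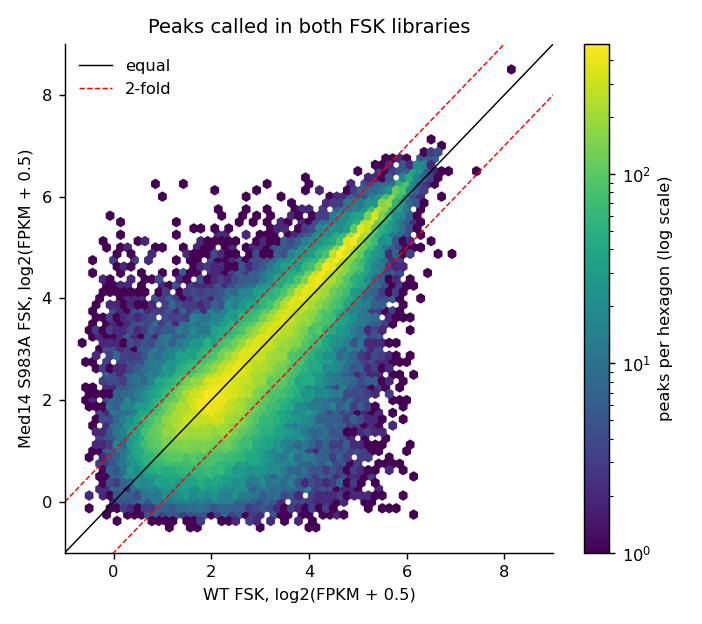
Level of each of the 112608 peaks called in both FSK libraries, WT FSK on the x axis and Med14 S983A FSK on the y axis, both as log2(FPKM + 0.5), with colour giving peaks per hexagon on a log scale. Peaks crowd along the black line of equal values, and the 13610 peaks under the lower dashed line outnumber the 5271 over the upper one on the authors' scaling.

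The 2-fold rule drew its line through a dense part of the distribution. On the higher side, a peak at chr16:22093585-22093983 with 0.49 FPKM in WT FSK and 1.48 FPKM in Med14 S983A FSK fell just inside, and a peak at chr5:122099928-122100977 with 19.5 and 39.5 FPKM fell just outside. On the lower side, chr7:113783975-113784237 with 7.95 and 3.72 FPKM fell just inside and chr2:219368424-219368691 with 13.1 and 6.30 FPKM just outside. Coordinates here and below are those of the deposited table on rn6.

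The largest losses in the mutant were peaks of high level in WT. At chr19:12734442-12735351 the values were 72.4 FPKM in WT FSK (95% exact Poisson interval 71.3 to 73.5) and 0.324 FPKM in Med14 S983A FSK (0.239 to 0.430), a difference of -6.47. The same peak read 21.3 FPKM in WT CON and 30.5 FPKM in WT Ex-4, and both other mutant libraries listed it at 0. Among the WT libraries it was therefore highest with FSK. In the mutant it had a low value with FSK, from 48 reads, and no call in CON or with Ex-4. Intervals of this kind cover counting error only.

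The next 4 losses were likewise near 0 in the mutant and differed in how WT moved. A peak at chr8:23756148-23757069 had 52.9 FPKM in WT FSK and 0.433 FPKM in Med14 S983A FSK, against 30.2 FPKM in WT CON and 0.42 FPKM in the mutant CON. Another at chr4:160498248-160499103 did not move with the stimulus in WT, where the CON, Ex-4 and FSK libraries had 60.2, 61.5 and 61.2 FPKM, and stood at 0.596 FPKM in Med14 S983A FSK. The peaks at chr17:9166235-9167420 and chr7:36883884-36884982 had 72.3 and 48.1 FPKM in WT FSK and 0.901 and 0.447 FPKM in the mutant. In all 5 the 3 WT libraries lay above the 3 mutant libraries, a separation in this direction that 19.9% of all peaks called in both FSK libraries had. As these are the largest differences by choice, nothing is read from it.

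The largest gains in the mutant were regions that WT cells hardly opened. The first, at chr10:94563124-94563935, had 0.471 FPKM in WT FSK (0.382 to 0.575) and 46.8 FPKM in Med14 S983A FSK (45.7 to 48.0), a difference of 5.61. It stood at 47.3 FPKM in the mutant CON and 46.0 FPKM in the mutant Ex-4 library, so it was open to the same degree whatever the treatment. The second, at chr7:12731726-12732741, had 1.27 FPKM in WT FSK and 76.5 FPKM in Med14 S983A FSK. In the mutant this peak rose with stimulation, from 28.7 FPKM in CON to 38.6 FPKM with Ex-4, while WT read 1.08 and 1.40 FPKM.

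Another gain, at chr7:63617201-63618158, also climbed in the mutant, from 20.7 FPKM in CON and 31.1 FPKM with Ex-4 to 45.3 FPKM with FSK, with 0.649 FPKM in WT FSK. The remaining gains of this rank, at chr16:9430081-9431317 and chr3:2401184-2402375, were flat across the mutant libraries at 33.3 to 35.5 FPKM and 26.3 to 27.5 FPKM. WT CON and WT Ex-4 listed these 3 peaks at 0. Gains of this size therefore included regions that the stimulus raised in the mutant and regions that it left alone.

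The widest regions with a 2-fold difference showed what such a difference looks like where counting error is negligible. The longest higher peak, 3152 bp at chr9:119187852-119191004, had 11.3 FPKM in WT FSK (11.1 to 11.6) and 40.6 FPKM in Med14 S983A FSK (40.1 to 41.2). In CON it had 11.2 and 44.8 FPKM. The second, 3028 bp at chr9:82641826-82644854, had 9.04 and 26.5 FPKM under FSK. Both lie on chromosome 9, which stands out below.

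On the lower side the longest peaks were 2553 bp at chr15:28015176-28017729, with 19.8 FPKM in WT FSK and 8.39 FPKM in Med14 S983A FSK, and 2201 bp at chr12:44083527-44085728, with 12.6 and 2.12 FPKM. The CON values of the last were 10.5 and 2.23 FPKM. For these wide peaks as well, the genotypes differed by a similar factor before and after FSK.

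Differences of 2-fold were spread unevenly over peak length. The compared peaks were divided into 4 bands of about equal number by length, and likewise by level. In the shortest band (94 to 239 bp), 3.12% of the peaks called in both libraries were higher and 3.82% lower. The share of lower peaks was 12.5% in the second band, 18.2% in the third (423 to 682 bp) and 10.97% in the longest (683 to 3550 bp), while the share of higher peaks stayed between 4.70% and 5.25%. Among peaks called in both libraries, those of middle length thus had the largest share of lower peaks. The third band had 3.47 lower peaks per higher peak, against 1.22 in the first. This class made up 53.8% of the compared peaks in the shortest band and 94.2% in the longest. Peaks called in WT FSK only are not in it, and were most frequent in the shortest band. The medians moved little, from -0.11 in the third band to 0.12 in the longest. The spread was smallest in the shortest band, where the standard deviation of the differences was 0.55, against 0.93 in the third.

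Level gave a similar picture among peaks called in both libraries, which made up 46.8% of the weakest band and 98.5% of the strongest. Lower peaks were 9.37% of this class in the weakest band (mean of 1 to 2.04 FPKM over the 6 libraries). Their share was 15.7% in the second, 16.8% in the third (4.26 to 10.9 FPKM) and 6.48% in the strongest. Higher peaks made up 5.19%, 5.47%, 5.48% and 3.14% of the same class in these bands. WT FSK only peaks, left out of these shares, made up 31.4% of the compared peaks in the weakest band and 1.1% in the strongest. The strongest band had the lowest share of peaks past 2-fold in each direction, with 36180 of its 36727 peaks called in both libraries, while its median difference, 0.14, was the farthest of the 4 from 0. In CON, 14.7%, 17.1%, 16.4% and 6.65% of the peaks of these bands were lower and 13.4%, 12.0%, 8.23% and 4.08% were higher. The share of higher peaks thus fell from band to band in CON, where under FSK the first 3 bands were close to each other. This class needs a call in both FSK libraries and does not need a call in CON. Listings at 0 therefore enter the CON shares and not the FSK shares, so nothing is read from this contrast. Level is a mean that includes listings at 0, so a missing call lowers it.

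**Figure D2:**
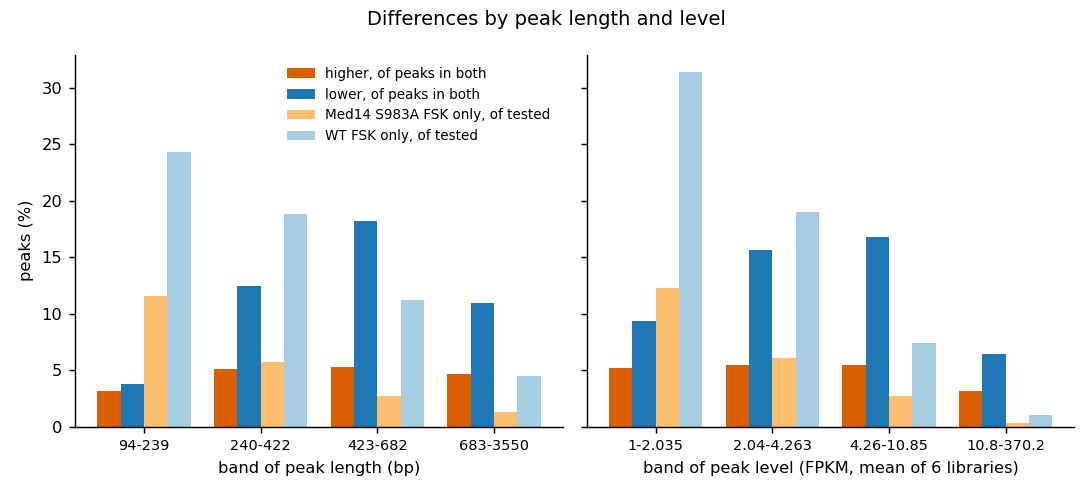
Percent of peaks by band of peak length in bp (left) and of mean level over the 6 libraries in FPKM (right). Dark bars give the peaks at least 2-fold higher or lower in Med14 S983A FSK among those called in both FSK libraries, and pale bars the peaks called in 1 FSK library among all compared. Lower peaks reach 18.2% in the third band of length, and WT FSK only peaks fall from 24.4% in the shortest band to 4.49% in the longest.

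Peaks called in 1 FSK library only were mostly short and weak. Off the mitochondrial chromosome, 47453 were called in WT FSK only and 22171 in Med14 S983A FSK only. Their median lengths were 190 and 163 bp, against 466 bp for peaks called in both libraries. Their median values in the library that called them were 2.47 and 2.41 FPKM, from 120 and 67 reads, against 6.08 FPKM in WT FSK and 5.21 FPKM in Med14 S983A FSK for the shared peaks. In bulk they held little of the signal, with 5.17% of the WT FSK reads in peaks and 1.88% of those of Med14 S983A FSK.

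WT FSK only peaks went from 24.4% of the compared peaks in the shortest band through 18.8% and 11.2% to 4.49% in the longest. The Med14 S983A FSK only peaks went alongside, from 11.6% through 5.72% and 2.73% to 1.31%. WT FSK only peaks were the more frequent in each band, and WT FSK was also the deeper library. The part of depth in this excess was not tested.

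The calls in the other 4 libraries split these peaks into distinct kinds. Of the WT FSK only peaks, 21292 (44.9%) were called in no other library and 12172 (25.7%) in all 3 WT libraries and no mutant library. The former had a median length of 134 bp and the latter of 323 bp. A further 4140 were called in every library except Med14 S983A FSK. On the mutant side, 10917 (49.2%) were called in Med14 S983A FSK alone, 4998 (22.5%) in all 3 mutant libraries and no WT library, and 947 in every library except WT FSK. The genotype-wide peaks are the ones for which 3 libraries of one genotype made the same call against 3 of the other. Their median levels were 3.06 FPKM in WT FSK and 3.21 FPKM in Med14 S983A FSK, above the 2.38 and 2.34 FPKM of the peaks called in 1 FSK library alone.

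The strongest peaks of each kind show the range. WT FSK alone of the FSK libraries called chr14:77339976-77340869 at 82.0 FPKM (80.8 to 83.2), a peak with 28.2 FPKM in WT CON, 52.8 FPKM in WT Ex-4 and a listing at 0 in all 3 mutant libraries. A second, chr6:28221455-28222445, had 35.2, 50.2 and 71.7 FPKM in WT CON, Ex-4 and FSK and was likewise at 0 in the mutant libraries. The last, chr19:9808054-9808892, had 46.6, 59.2 and 68.5 FPKM in WT and 1.28 FPKM in the mutant Ex-4 library only. All 3 were highest in WT FSK and lowest in WT CON among the WT libraries. They were chosen for their high WT FSK values, which favours this, so nothing is read from it.

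Of the strongest peaks called in Med14 S983A FSK only, chr11:71913889-71914362 had 61.1 FPKM there, 13.0 FPKM in the mutant CON, 37.2 FPKM in the mutant Ex-4 library and a listing at 0 in WT. The other two, chr1:221205830-221205990 at 64.7 FPKM and chr1:221197616-221197915 at 64.6 FPKM, come from one short stretch of chromosome 1. The first is only 160 bp long and lies 111 bp from a peak that WT FSK did call. Its listing at 0 in WT FSK is thus next to accessible chromatin in that library.

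Such neighbourhoods were common among the strong 1-library peaks. Within 500 bp of a peak in the other FSK library's list lay 2605 of the 21651 compared WT FSK only peaks (12.0%) and 1847 of the 7863 Med14 S983A FSK only peaks (23.5%). Among those with at least 10 FPKM, the numbers were 586 of 2925 and 420 of 1063. For these, a listing at 0 can stand beside open chromatin, and how the peaks were cut was not tested. Of the peaks with at least 10 FPKM, 1392 in WT and 606 in the mutant had the genotype-wide call pattern.

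The stretch of chromosome 1 held the longest unbroken row of higher peaks. It was chosen after its values were seen, and each of its peaks is past 2-fold by that choice. From chr1:221179740 to 221204977, a span of 25.2 kb, 14 successive peaks called in both FSK libraries were all at least 2-fold higher in the mutant, with a median difference of 2.19. In WT FSK these 14 peaks ran from 2.90 to 28.8 FPKM with a median of 11.5 FPKM, and in Med14 S983A FSK from 30.2 to 81.2 FPKM with a median of 56.2 FPKM. Their median was 15.01 FPKM in the mutant CON and 22.8 FPKM in the mutant Ex-4 library. In WT CON 8 of the 14 were listed at 0, and in WT Ex-4 6. Between these peaks lay others called in 1 FSK library only, 4 in Med14 S983A FSK and 2 in WT FSK. The latter, chr1:221188613-221188875 at 10.8 FPKM and chr1:221190222-221190358 at 11.01 FPKM in WT FSK, were listed at 0 in all 3 mutant libraries. The calls at these 2 peaks thus went against the row, while a listing at 0 gives no fold.

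Summed over all 21 merged peaks of the span and scaled to 1000000 reads in peaks, the reads were 40.7 in WT CON, 47.8 in WT Ex-4 and 113.0 in WT FSK. In the mutant they were 219.5 in CON, 263.7 after Ex-4 and 528.3 after FSK. The called length grew as well, from 4506 bp in WT CON to 9210 bp in WT FSK, and from 9828 bp in the mutant CON to 10029 bp in the mutant FSK library. Because a peak without a call adds 0, these sums move with how much was called. The 6 peaks of the span called in both CON libraries do not have this limit, and all 6 were at least 2-fold higher in the mutant CON, at 10.6 to 61.8 FPKM against 1.05 to 20.4 FPKM in WT CON, with a median difference of 1.67. Genes were not assigned to it, as the annotation of rn6 was not used here.

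The differences found under FSK were for the most part already there in untreated cells. Of the 5271 higher peaks called in both FSK libraries, 3974 (75.4%) were also at least 2-fold higher in the mutant in CON, 4184 (79.4%) with Ex-4 and 3640 (69.1%) in both. Over all 112608 peaks of this class, 8.57% were at least 2-fold higher in CON and 10.7% with Ex-4. The median difference of the higher peaks was 1.31 under FSK, 1.42 in CON and 1.49 with Ex-4. The sign was the opposite in CON for 44 of them.

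Of the 13610 lower peaks, 10009 (73.5%) were at least 2-fold lower in CON, 9700 (71.3%) with Ex-4 and 8804 (64.7%) in both, against 13.2% and 11.4% of all peaks of the class. Their median difference was -1.47 under FSK, against -1.48 in the CON and -1.38 in the Ex-4 libraries, and 116 had the opposite sign in CON. The CON and Ex-4 libraries share no library with the FSK comparison, so these are separate libraries of the same 2 groups of cells. They do not tell the substitution from other differences between the lines. Peaks that were at least 2-fold different under FSK and in neither other treatment numbered 753 among the higher and 2705 among the lower.

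The 1-library peaks are not read in this way. The filter on the mean of the 6 libraries kept 2115 of the 21292 peaks called in WT FSK alone and 10275 of the 12172 called in all 3 WT libraries and no mutant library. On the mutant side it kept 747 of 10917 and 4166 of 4998. A 1-library peak thus passed mostly where CON and Ex-4 of its genotype also called it, and its difference in CON follows from that.

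To set aside listings at 0, the comparison was repeated on the 86465 compared peaks called in all 6 libraries. Here 3516 peaks were higher and 9851 lower under FSK. The differences under FSK and in CON had a Pearson correlation of 0.91 over these peaks, and those under FSK and with Ex-4 of 0.92, both as descriptions over peaks that share libraries within each axis. The differences spread with a standard deviation of 0.78 under FSK, 0.78 in CON and 0.76 with Ex-4, whereas the FSK difference minus the CON difference had a standard deviation of 0.33 and a median of -0.001. The genotype difference in any one treatment was hence much wider than its change with FSK.

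**Figure D3:**
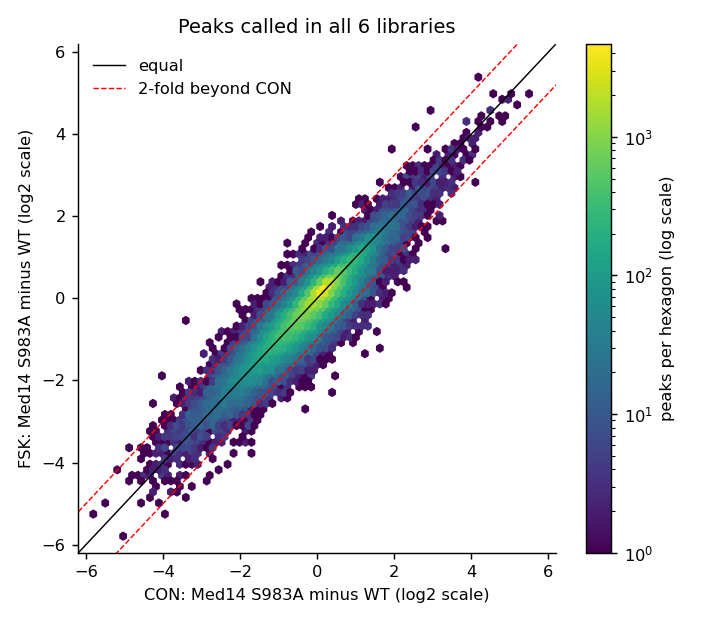
Difference Med14 S983A minus WT on the log2(FPKM + 0.5) scale in CON (x axis) and under FSK (y axis) for the 86465 peaks called in all 6 libraries, with colour giving peaks per hexagon on a log scale. Peaks follow the black line of equal differences, and 331 lie above the upper and 878 below the lower dashed line, which mark an FSK difference 2-fold beyond that in CON.

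The FSK difference exceeded the CON difference by at least 2-fold in 331 of the 86465 peaks (0.383%) and lay at least 2-fold below it in 878 (1.02%). These are the peaks whose signed change from CON to FSK was more positive, or more negative, in the mutant than in WT by that factor. A more positive change can come from a rise in the mutant or a fall in WT, and a more negative one from the reverse. The numbers are small and turned round under quantile normalization, which gave 3690 and 2489 peaks. Listings at 0 enter the ranks of that alternative, although the peaks counted here have none.

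Restricting this to peaks at least 2-fold different under FSK and within 1.5-fold in CON left 189 higher and 690 lower peaks. The mirror choice, at least 2-fold different in CON and within 1.5-fold under FSK, left 498 higher and 338 lower peaks, so the totals were similar and the balance was the reverse. In the 690 lower peaks the median level was 5.82 FPKM in WT FSK and 2.24 FPKM in Med14 S983A FSK. Their median difference was -1.16 under FSK, -0.53 with Ex-4 and -0.38 in CON. With FSK, WT rose by a median of 0.32 on the log2 scale while the mutant fell by 0.52, where all peaks called in the 6 libraries had medians of -0.14 and -0.12. FSK opened 182 of them at least 2-fold in WT and 39 in the mutant, and closed 22 in WT and 189 in the mutant. These losses thus joined peaks that opened in WT with peaks that closed in the mutant. The CON values entered the choice of these peaks, so the FSK responses are in part fixed by it and are given as a description. With Ex-4, which took no part in the choice but is read against the same CON libraries, WT changed by a median of 0.14 and the mutant by -0.02.

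The 189 higher peaks had a median of 1.44 FPKM in WT FSK and 3.66 FPKM in Med14 S983A FSK, so they were weaker. Their median difference was 1.12 under FSK, 0.62 with Ex-4 and 0.37 in CON. With FSK, WT fell by a median of 0.59 and the mutant rose by 0.20, with 41 peaks closed at least 2-fold in WT and 14 opened at least 2-fold in the mutant. In the Ex-4 comparison 106 of the 189 higher peaks (56.1%) and 302 of the 690 lower peaks (43.8%) were at least 1.5-fold different the same way, against 12.6% and 17.9% of the 86465 peaks. In CON 167 and 624 of them already had the same sign.

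The 4 lower peaks with the widest gap between FSK and CON were all induced in WT, which the choice by that gap favours. At chr6:57599290-57600304, WT had 0.794 FPKM in CON, 4.16 FPKM after Ex-4 and 11.3 FPKM after FSK, and the mutant had 1.25, 1.56 and 2.01 FPKM. WT thus opened the region strongly, and the mutant moved much less. At chr16:25118037-25118518, WT rose from 1.66 FPKM through 4.86 FPKM to 14.2 FPKM, and the mutant read 2.60, 3.55 and 3.51 FPKM.

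At chr5:86614247-86615005, WT rose from 1.78 FPKM in CON and 3.67 FPKM with Ex-4 to 7.34 FPKM with FSK (6.96 to 7.74), whereas the mutant went from 1.35 and 0.798 FPKM to 0.704 FPKM (0.564 to 0.869). At chr1:44349860-44351252, the widest of the 4 at 1392 bp, WT had 10.9, 16.8 and 26.5 FPKM and the mutant 9.90, 8.47 and 5.38 FPKM. At these 2 loci the genotypes moved in opposite directions. In each of the 4, WT was ordered CON, Ex-4, FSK from low to high. The choice favours CON below FSK in WT, while the Ex-4 values did not enter the gap.

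The 4 higher peaks of this kind, chosen by the same gap, were of low level. At chr7:100303549-100304031, WT read 1.07 FPKM in CON, 0.509 FPKM after Ex-4 and 0.330 FPKM after FSK (0.236 to 0.450), and the mutant 0.850, 1.72 and 1.99 FPKM (1.69 to 2.32 under FSK). At chr13:33489416-33490105, WT had 1.70, 0.978 and 0.370 FPKM and the mutant 1.38, 2.10 and 1.91 FPKM. In both, WT read lower in the stimulated libraries than in CON, and the mutant read higher in them than in CON. For FSK the choice by the gap favours this.

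At chr9:8661586-8662541, WT went from 1.18 FPKM in CON to 0.258 FPKM with FSK and the mutant from 1.26 to 2.05 FPKM. The last, chr8:64503382-64504526, differed in that WT was also highest with FSK, at 2.03 FPKM in CON, 0.732 FPKM with Ex-4 and 2.54 FPKM with FSK, while the mutant rose from 1.25 FPKM through 2.06 FPKM to 6.002 FPKM. Some of these values rest on few reads, with 40, 64 and 62 reads in WT FSK for the first 3 peaks, against 731 for the last.

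**Figure D4:**
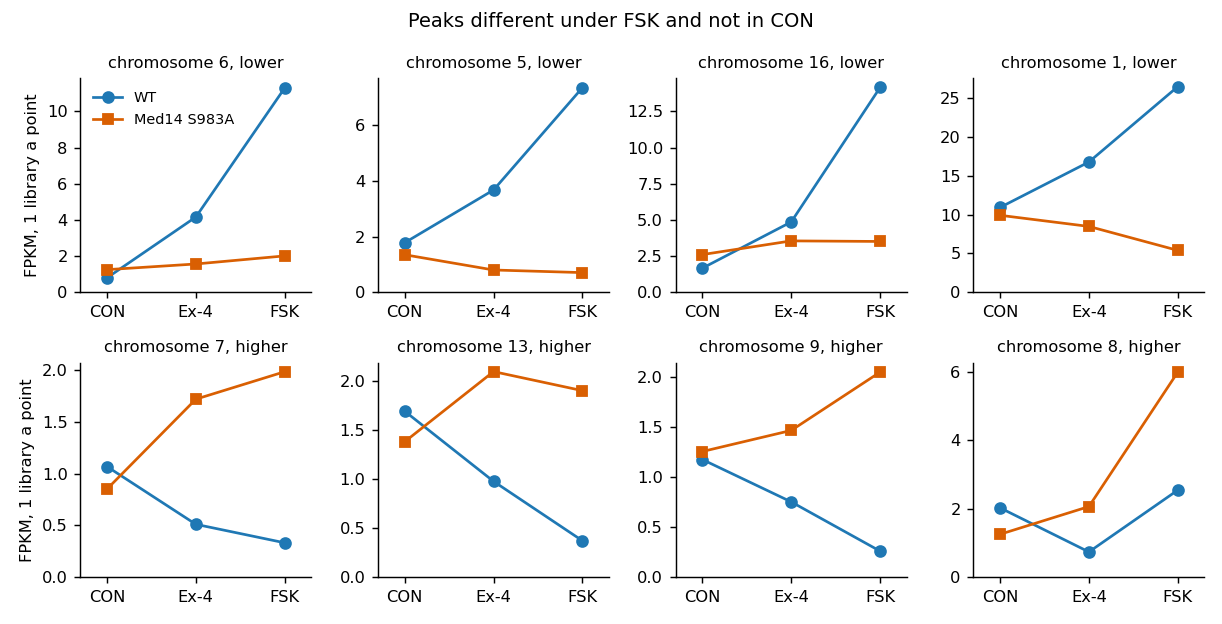
FPKM of 8 peaks called in all 6 libraries that were at least 2-fold different under FSK and within 1.5-fold in CON, with the treatment on the x axis, WT as blue circles and Med14 S983A as orange squares, 1 library a point and no error bar. The top panels show the 4 lower peaks, where WT climbs to between 7.34 and 26.5 FPKM with FSK, and the bottom panels the 4 higher peaks, where the mutant reaches 1.91 to 6.002 FPKM.

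Regions that had no CON call in either genotype form a set of their own. Of the peaks called in both FSK libraries, 13286 were called in neither CON library. They were short, at a median of 215 bp, with medians of 4.78 FPKM in WT FSK and 4.20 FPKM in Med14 S983A FSK. Their median difference was -0.14, with 59.8% of them below 0, and 422 (3.18%) were higher and 1048 (7.89%) lower. In the 88565 peaks called in both CON libraries, the median difference was 0.039, and 4.18% were higher and 11.4% lower. Fewer of the regions without a CON call were thus past 2-fold, and their median lay on the lower side. Centring moved every difference up by 0.17, so the side of 0 on which this median lies depends on the scaling. The gap between the medians of the sets is the same under centring, and it was not computed after quantile normalization.

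Where the CON libraries disagreed, the FSK libraries leaned the same way. The 5534 peaks called in WT CON and not in the mutant CON had a median difference of -0.84 under FSK, with 43.8% lower and 0.289% higher. The 5223 peaks called in the mutant CON and not in WT CON had a median of 0.46, with 21.6% higher and 0.747% lower. A call in 1 CON library was thus matched in direction by the FSK values in most such peaks.

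Chromosomes 5 and 9 carried an excess of higher peaks. Higher peaks made up 11.8% of the 7383 peaks called in both libraries on chromosome 5 and 15.8% of the 4578 on chromosome 9, against 2.43% (X) to 5.81% (chromosome 12) elsewhere. They gave 870 and 723 of the 5271 higher peaks. They were also the chromosomes with fewer lower than higher peaks, at 0.808 and 0.665 lower peaks per higher peak, where the others had 1.87 to 6.42. Lower peaks were most frequent on chromosomes 17 (17.0%), 15 (15.1%) and 4 (14.7%) and least on X (9.44%).

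The 1-library peaks varied in the same way. For each compared Med14 S983A FSK only peak there were 1.70 WT FSK only peaks on chromosome 5 and 1.58 on chromosome 9, the lowest ratios, and 5.77 on chromosome 15, the highest.

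These differences were gathered in blocks. The peaks called in both libraries were cut, chromosome by chromosome, into 553 runs of 200 neighbours. The last peaks of a chromosome that did not fill a run were in none. A run counted as shifted when its median differed at least 1.5-fold from that of all such peaks. Of the runs, 14 were shifted higher and 7 lower, and their medians ranged from -0.999 to 0.996. The shifted runs held 4200 of the 112608 peaks (3.73%), 18.8% of the higher peaks and 5.02% of the lower peaks.

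All the higher runs lay in 2 blocks. On chromosome 5, 6 successive runs from chr5:153756780 to 170668432 (16.9 Mb) had a median difference of 0.87 under FSK, 0.82 in CON and 0.90 with Ex-4. On chromosome 9, 8 successive runs from chr9:71842450 to 111302959 (39.5 Mb) had a median of 0.79 under FSK, 0.81 in CON and 0.87 with Ex-4. Within them, 458 of 1200 and 516 of 1600 peaks were at least 2-fold higher, and Med14 S983A FSK only peaks outnumbered WT FSK only peaks, at 179 against 145 and 275 against 156. Upstream of the block on chromosome 5, 10 runs between chr5:107975160 and 147442531 had medians of 0.32 to 0.52 under FSK, below the limit for a shifted run. The run after the block on chromosome 9, from chr9:111327026 to 117231618, was also below it, at 0.52 under FSK, 0.66 in CON and 0.64 with Ex-4. The raised stretch thus goes on past the end given for that block. Both blocks were thus shifted as a whole by 1.83-fold and 1.73-fold at the median, to about the same degree in all 3 treatments.

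The lower runs lay on chromosomes 4, 12, 15 and 17. The longest block, 3 runs from chr4:159678036 to 183542017 (23.9 Mb), had a median difference of -0.88 under FSK, -0.82 in CON and -0.83 with Ex-4, and 260 of its 600 peaks were at least 2-fold lower. There, 410 compared peaks were called in WT FSK only and 23 in Med14 S983A FSK only. One of the 5 largest losses, at chr4:160498248-160499103, lies inside this block. The runs at chr12:49372495 to 52309416, chr15:56885 to 10321730 and chr17:14865 to 4683966 had medians of -0.62, -0.69 and -0.64 under FSK, and of -0.53, -0.59 and -0.48 in CON. The blocks on chromosomes 15 and 17 start with the first peaks called in both libraries on their chromosomes. On chromosome 17 the runs that follow, from chr17:4707182 to 16011457, had medians of -0.49 to -0.37 under FSK, short of the limit.

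Outside all shifted runs, 4278 of 108408 peaks (3.95%) were higher and 12927 (11.9%) lower, peaks that were in no run included. The blocks therefore held a part of the higher peaks and little of the lower ones. Over the 553 runs, the medians under FSK had a Pearson correlation of 0.89 with those in CON and of 0.92 with those with Ex-4, a description over runs that share the libraries of each treatment. Copy number of these regions in the clones was not measured here, and its part in the blocks was not tested.

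**Figure D5:**
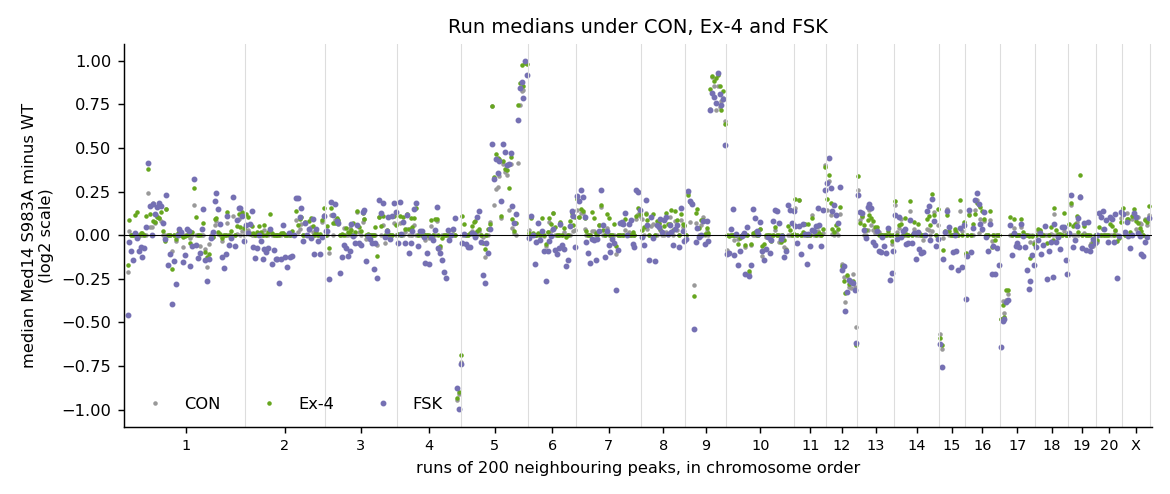
Median difference Med14 S983A minus WT (log2 scale) in 553 runs of 200 neighbouring peaks called in both FSK libraries, in chromosome order, for CON (grey), Ex-4 (green) and FSK (purple). Most runs lie near 0, while 6 runs on chromosome 5 and 8 on chromosome 9 rise, and 3 runs on chromosome 4 fall, in all 3 treatments.

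On a finer scale, peaks past 2-fold also sat next to each other. After a higher peak, the next peak on the chromosome was higher in 19.2% of 5269 cases, against 4.68% of all peaks, and in 23.7% of the 3130 cases where it lay within 10 kb. After a lower peak the next was lower in 25.1% of 13609 cases, against 12.1% of all peaks, and in 26.4% of 6445 cases within 10 kb. Rows of at least 5 such peaks numbered 38 on the higher and 124 on the lower side.

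The longest rows of lower peaks were wide. They were chosen after their values were seen. The longest, 16 peaks from chr4:162991622 to 165577253 (2586 kb), lies in the block on chromosome 4 and had a median difference of -1.41 under FSK and -1.61 in CON. A row of 12 peaks from chr1:2397337 to 2752660 ran from 3.31 to 34.8 FPKM in WT FSK and from 0.592 to 12.3 FPKM in Med14 S983A FSK. A row of 11 peaks from chr6:127585566 to 128063549, had 5.83 to 26.9 FPKM in WT FSK and 1.31 to 4.29 FPKM in Med14 S983A FSK. On chromosome 1, a further row of 10 peaks from chr1:3162528 to 3844777 had a median difference of -2.84 under FSK and -2.78 in CON.

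Next to the row on chromosome 1 described above, the longest rows of higher peaks had 10 peaks each. That at chr9:119528168 to 119680366 had a median difference of 1.42 under FSK and 1.90 in CON, and that at chr5:173227679 to 173297459 of 1.39 and 1.09. The row at chr9:100155434 to 100183428 stood apart, with a median difference of 1.38 under FSK, 1.03 with Ex-4 and 0.17 in CON, and with 1.31 to 5.32 FPKM in WT FSK against 4.16 to 13.7 FPKM in Med14 S983A FSK. Of the 4 longest higher rows it is the one whose CON difference was near 0, and it lies inside the raised block of chromosome 9. A shorter row of 7 peaks, chr11:83355293 to 83406431, had median differences of 1.38 under FSK, 0.0 in CON and 3.11 with Ex-4. Peaks of a row need a call in the FSK libraries only, so listings at 0 can enter the CON medians. A row of 9 lower peaks at chr19:12619331 to 12808293, which holds the largest single loss, had a median difference of -2.50 under FSK, -1.27 in CON and -1.41 with Ex-4.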

How the data were processed

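Per the labels and the study's methods, the authors used Trim Galore on the reads, BWA for alignment to rn6, SAMtools to drop mitochondrial, duplicated and low-quality alignments, and MACS2 to call peaks. The methods describe a Tn5 shift for fragments sorted by nucleosome number, after peak calling, and do not say whether the deposited values use it. A deposited table holds FPKM, which the authors made with HOMER over the merged peaks, beside the length of each peak and the lists that called it.

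Values were taken as log2(FPKM + 0.5). The 3 mitochondrial peaks were left out, as were peaks whose mean of the 6 values was under 1 FPKM. Reads were recovered from the steps of the lowest values, all of which lay within 0.15 of a whole number, and gave 95% exact Poisson intervals. A called peak held a median of 377 reads in WT FSK and 256 in Med14 S983A FSK.

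The named peaks are the 5 largest differences in each direction among peaks called in both FSK libraries, the 3 strongest peaks called in 1 FSK library only, the 4 per direction with the widest gap between the FSK and CON differences among peaks called in all 6 libraries, 2-fold different under FSK and within 1.5-fold in CON, and the 2 longest per direction. The comparison, the peaks and the rules were chosen with earlier results of these data known. Genes, promoters, motifs and cell type markers were not analysed here, as the annotation and sequence of rn6 were not used. The calculation was tested on simulated reads. The software was Python 3.11.15 with matplotlib 3.10.9, scipy 1.17.1, pandas 2.3.3 and numpy 2.4.6.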

Additional observations from a re-analysis of the deposited data

Results flagged for a closer look

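Among the peaks called in all 6 libraries, 2 were at least 2-fold lower in Med14 S983A under FSK and at least 2-fold higher in CON, and 0 were higher under FSK and lower in CON. The difference between treatments was not tested, since each condition had 1 library. At chr14:3279262-3279800, WT had 1.74 FPKM in CON, 7.96 FPKM with Ex-4 and 19.8 FPKM with FSK, and Med14 S983A 4.82, 10.2 and 7.62 FPKM. At chr17:75357139-75357586, WT had 1.65, 6.39 and 4.94 FPKM and Med14 S983A 6.30, 6.23 and 1.84 FPKM. With listings at 0 included, 547 compared peaks were lower under FSK and higher in CON, and 199 the reverse.

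The 3 mitochondrial peaks, which no comparison used, held 0.455% of the reads in peaks in WT FSK and 0.897% in Med14 S983A FSK, a ratio of 1.97. In CON the shares were 0.676% and 1.09%, and with Ex-4 0.573% and 0.970%. The methods describe removal of mitochondrial reads before peaks were called.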

How the results depend on the processing

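Of 59 alternatives, 29 kept the value (within 1.5 times for a count, within the 95% interval for a median or share) and 30 moved it. These intervals count each peak as a separate draw, although all peaks come from the same libraries. They are therefore narrow, serve as a rule for sorting alternatives only, and do not measure the spread between cultures. No paired analysis was possible because the FSK comparison is a single pair of libraries, and for the same reason none was left out. A fit that takes the 3 treatments as repeats of the genotype difference asks another question and was not run. Depth limits what a listing at 0 says, and with 1 library per condition the spread between cultures is unknown. The causes of the moves below were not tested, apart from filters and fold rules, which by construction change how many peaks count.

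Over all compared peaks, the higher and lower counts were 27705 and 61358 with no filter, 5548 and 15673 with a mean of at least 3 FPKM, 8203 and 22699 with the 4-fold rule, and 3516 and 9851 over peaks called in all 6 libraries, a restriction chosen after seeing the data. The higher count was 21238 with the 1.5-fold rule and 24002 after quantile normalization, where 46.1% of the 2-fold differences were higher against 27.1% on the authors' scaling. For peaks called in both FSK libraries, the higher and lower counts were 13374 and 24736 with the 1.5-fold rule and 831 and 3127 with the 4-fold rule, and 16268 and 11927 after quantile normalization, which turned the split round. The median difference was 0.0382 with a mean of at least 3 FPKM and 0.182 after quantile normalization.

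The share of FSK differences also 2-fold in CON was 69.7% for higher and 70.7% for lower peaks over all compared peaks, a share that the filter sets in part for 1-library peaks. It was 75.4% and 73.5% among peaks called in both FSK libraries, 81.9% and 79.4% with a mean of at least 3 FPKM, and 69.9% for lower peaks with a pseudocount of 1. Peaks shifted beyond CON numbered 155 and 493 with a pseudocount of 1, 2216 and 4716 with the 1.5-fold rule, and 3690 and 2489 after quantile normalization, higher first. Runs of 100 peaks gave 30 shifted higher and 16 lower.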
